A study of Fukomys damarensis and Heterocephalus glaber and Mus musculus with 160 samples.

Results

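The data described here are the 10 mouse peak lists for the histone mark H3K27ac, 4 from liver and 6 from heart, out of 116 peak lists among the 160 samples of a study of liver and heart chromatin in mole-rats, guinea pig and mouse. The lists were taken by species, tissue and antibody in the sample labels. All animals were wild-type C57BL/6J males, adult, at an age of 2 months, with no treatment named. Each library came from a different animal, except that heart library 3 was a pool of 3 animals, and no animal gave both a liver and a heart library. Whole pieces of each organ were crosslinked, the liver after perfusion and the heart after removal of clots, so the libraries mix all cell types of the organ. Fewer cells with a peak and a weaker peak in each cell cannot be told apart in such tissue. Libraries are numbered within each tissue, and the numbers carry no order.

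H3K27ac is acetylation of lysine 27 on histone H3. It is placed by the acetyltransferases p300 and CBP and is found at promoters and enhancers in use, whereas H3K4me3 is concentrated at promoters and H3K4me1 at enhancers, whether these are active or only primed. Liver and heart share many active promoters, while the enhancers that drive hepatocyte metabolism or heart muscle contraction differ widely between the organs. In ChIP-seq, DNA bound to the marked histone is sequenced, and a peak is a stretch where it is enriched over the input, chromatin sequenced without the antibody step.

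Each list gives a peak's start and end in the mouse build GRCm38 and a fold, the authors' peak caller's own ratio of signal to background at the peak. The read depth behind the lists is unknown, so neither a count of peaks nor a fold can be scaled to it. Each liver list was called against the input of the same animal. The 6 heart lists were called against 5 input libraries, of which only that of the pool came from the same animals. Heart libraries 3 and 4 stood apart with the longest lists, and a heart H3K4me3 library used below carried peaks at many liver regions. Liver and heart genes were not assigned to peaks, and the marker genes of the tissues are not analysed here. The tissue labels were therefore checked by peak position alone. A peak was counted as found in another list when the overlap covered at least 50% of the shorter interval. Over the 12 ordered pairs of liver libraries, 69.6% to 80.5% of one library's peaks were found in the other, and over the 24 ordered pairs from liver to heart the range was 37.5% to 51.7%. The 2 ranges did not overlap. Pairs within heart were less alike among themselves, from 36.6% to 93.2%, the low values being those of the longest lists looked up in shorter ones, and pairs from heart to liver ranged from 26.3% to 46.2%.

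Liver lists were alike in length and heart lists were not. The liver libraries had 62480, 60299, 58877 and 55905 autosomal peaks. The heart libraries ranged from 56671 to 107890, with a median of 66582.5, heart libraries 3 and 4 having 103270 and 107890. The ranges overlapped, and the difference of -0.32 in log2 peaks, liver minus heart, did not pass a two-sided exact permutation test over the 210 ways to pick 4 of 10 libraries (p = 0.2, adjusted p = 0.236 by Benjamini-Hochberg over the 13 library-level tests, as are the other adjusted p-values of such tests). The difference was -0.60 with only the 3 heart lists called against an input whose ID starts with "do" (exact permutation, adjusted p = 0.0413) and -0.03 with only the 3 whose input ID starts with "vl" (exact permutation, adjusted p = 0.771). The "do" lists were those of heart libraries 2, 3 and 4, and so hold both of the longest lists. Input prefix and list length therefore cannot be told apart, here and in the splits by input below. By bases covered, the sign turned: liver peaks covered 59.4 to 66.4 Mb and heart peaks 41.2 to 91.5 Mb, a log2 difference of 0.11.

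Liver had a larger tail of wide peaks. The median peak width was 579, 637, 629 and 619 bases in the liver libraries and 355 to 707 bases in the heart libraries, with a median of 486. Of the heart libraries only library 6, at 707 bases, lay above the liver range. The log2 difference of 0.32 did not pass (exact permutation, p = 0.0571, adjusted p = 0.103), and without heart library 6 it was 0.43 with an adjusted p of 0.0172 in the same exact permutation test. It was 0.49 with the heart lists of "do" inputs (adjusted p = 0.0413, exact permutation) and 0.15 with those of "vl" inputs (adjusted p = 0.495, exact permutation). Peaks of at least 5 kb made up 1.48% to 2.09% of liver lists and 0.309% to 1.18% of heart lists. The longest single peak ran to between 28383 and 51980 bases in liver and between 12047 and 26457 bases in heart. In liver libraries 2, 3 and 4 it was the same stretch of chromosome 15, longest at chr15:58973429-59025408 in library 4. The 99th percentile of fold was 51.9 to 57.0 in liver and 18.6 to 49.9 in heart, and peaks with a −log10 q of at least 4 made up 89.5% to 92.4% of liver lists and 76.2% to 82.4% of heart lists. These ranges did not overlap either, and were not tested.

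A liver peak was found in a single heart library in 42.8%, 42.7%, 43.8% and 43.4% of cases, as the mean over the 6 heart libraries. The share of a heart library's peaks found in a single liver library ranged from 28.1% to 44.8%, with a median of 39.2%. The lowest heart values were those of libraries 4 and 3, with 28.1% and 31.6%, and the ranges overlapped. The difference of 6.01 percentage points did not pass (exact permutation, p = 0.1, adjusted p = 0.144), and its sign changed with list length. It was -1.08 points with the same number of top peaks by fold taken from every library and -0.64 points without the 2 longest heart lists. With heart lists of "do" inputs it was 13.2 points (adjusted p = 0.0413, exact permutation) and with those of "vl" inputs -1.16 points (adjusted p = 0.771, exact permutation). Without heart library 5 it was 8.56 points (adjusted p = 0.0442, exact permutation). All libraries of a tissue were compared with the same lists of the other tissue, so these values are not independent.

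**Figure D1:**
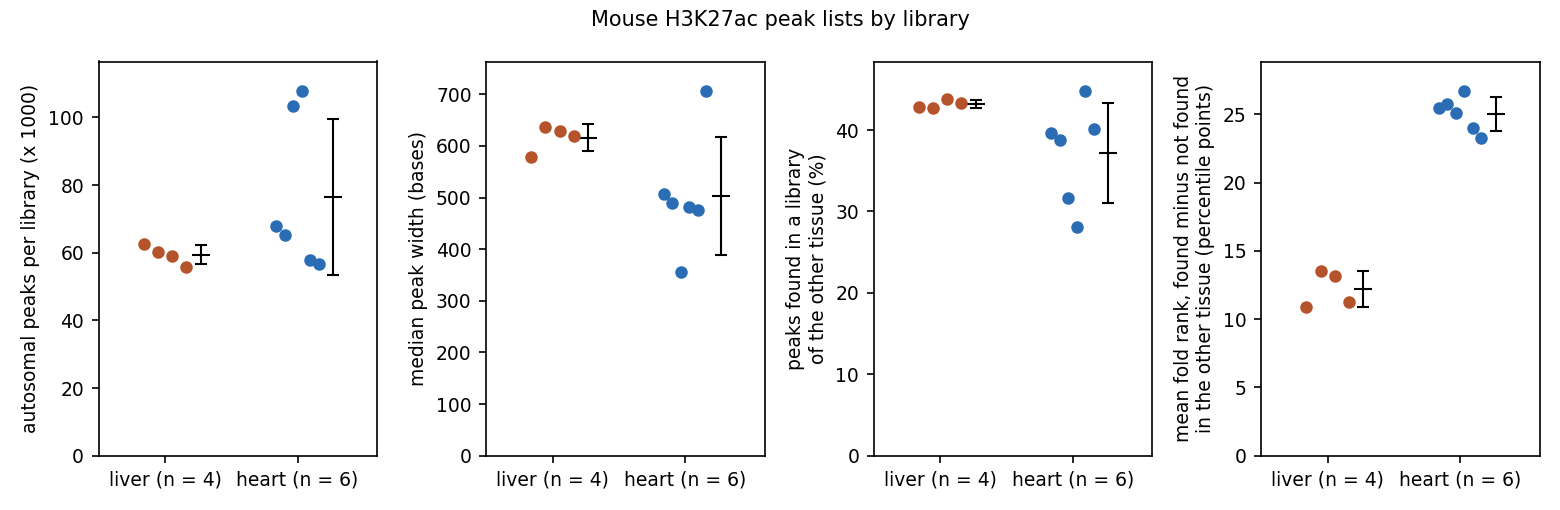
Points are single H3K27ac libraries of liver (n = 4) and heart (n = 6), and bars are the mean ± SD. The panels give the number of autosomal peaks, the median peak width in bases, the percentage of peaks found in a library of the other tissue, and the mean percentile rank of fold of peaks found in the other tissue minus that of peaks found in none of its libraries. The tissues overlap in the first 3 panels and are apart in the last, where liver libraries lie at 10.9 to 13.5 and heart libraries at 23.2 to 26.7.

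To compare positions, the stretches covered by peaks of at least 2 libraries of a tissue were taken as that tissue's consensus (59382 liver and 85156 heart segments) and merged into 108952 regions. Of these, 24743 (22.7%) had a peak in at least 2 libraries of each tissue, 25687 (23.6%) had one in at least 2 liver libraries and no heart library, and 50760 (46.6%) had one in at least 2 heart libraries and no liver library. These are called regions of both tissues, liver-only and heart-only regions. The other 7762 lay between the classes. The classes are counts of calls and were given no test. Regions of both tissues were wide, with a median of 1641 bases against 511 for liver-only and 377 for heart-only regions, and held 55.9 of the 115 Mb covered. Merging joins liver and heart segments in such regions, and a wide region can meet the peaks of more libraries. The part of this in their width was not tested.

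The excess of heart-only regions sat in those seen in few libraries. Of the heart-only regions, 23051 had a peak in just 2 of the 6 libraries, and 6045 (5.55% of all regions) had one in all 6. Of the liver-only regions, 8128 had a peak in 2 libraries and 12278 (11.3% of all regions) in all 4. Thus the order of the tissues was opposite between the loose and the strict count. The loose count takes 2 of 4 liver or 2 of 6 heart libraries, and the strict count all 4 or all 6. A larger number of heart libraries can raise the loose heart count and lower the strict one. Its part in the turned order was not tested. The heart-only count was 31768 without the 2 longest heart lists, against 30033 liver-only regions then. A further 14424 regions (13.2%) had a peak in all 10 libraries. Where all 4 liver libraries and just 1 heart library had a peak (1637 regions), that heart library was number 4 in 49.3% and number 3 in 34.8% of the regions. In the mirror case of all 6 heart libraries and 1 liver library (1196 regions), the shares of the liver libraries were 16.7% to 31.4%.

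**Figure D2:**
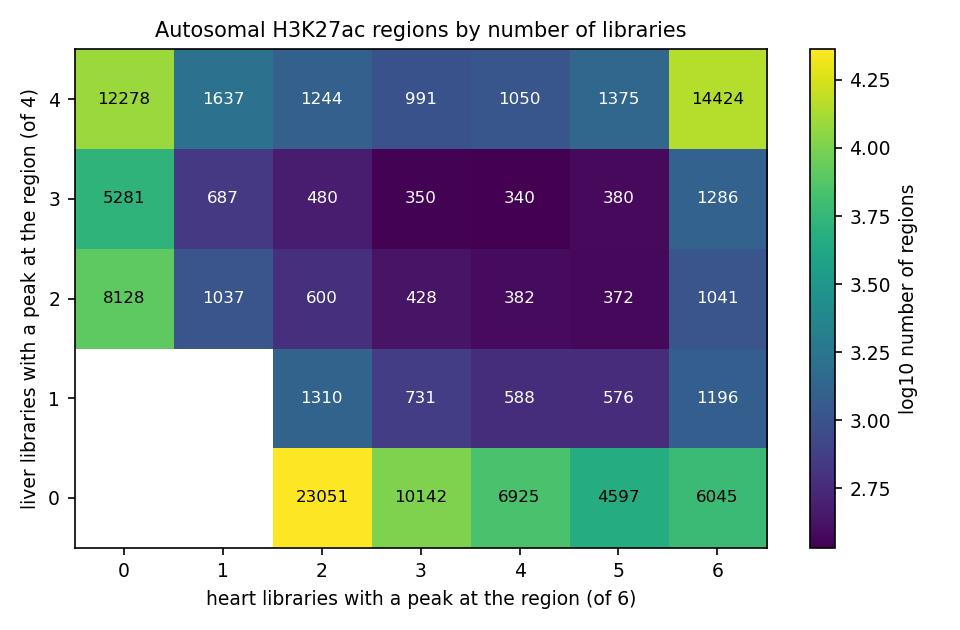
Each cell gives the number of autosomal H3K27ac regions with a peak in that many heart libraries (x axis, of 6) and liver libraries (y axis, of 4), and colour gives log10 of the number. The 3 corners hold most of the regions seen in every library of a tissue: 12278 in liver alone, 6045 in heart alone and 14424 in all 10 libraries.

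Peaks found in the other tissue had a higher fold than peaks found in none of its libraries, in every library of both tissues, and the gap was wider in heart. Each library's own peaks were ranked by fold from 0 to 100. The mean rank of peaks in the other tissue's consensus exceeded that of peaks in no library of the other tissue by 10.9, 13.5, 13.2 and 11.3 points in the liver libraries. In the heart libraries the gap ran from 23.2 to 26.7 points, with a median of 25.3. All heart values lay above all liver values. Over the 10 libraries the mean gap was 19.9 ± 6.74 points (SD, n = 10), above 0 in 10 of 10 libraries (two-sided exact sign-flip permutation test, p = 0.00195, the smallest it can give, adjusted p = 0.0127). The gap was 12.2 ± 1.34 points in liver (SD, n = 4) and 25.0 ± 1.25 points in heart (SD, n = 6), a difference of -12.84, liver minus heart (exact permutation, p = 0.00476, the smallest it can give, adjusted p = 0.0155). It was -12.61 points with heart lists of "do" inputs (adjusted p = 0.0413) and -8.07 points with those of "vl" inputs (adjusted p = 0.0619, where p = 0.0286 is the smallest exact permutation value that 4 against 3 libraries allow). Without the 2 longest heart lists it was -9.51 points, with an adjusted p of 0.0619 in the exact permutation test. Liver peaks were classed by 6 heart libraries and heart peaks by 4 liver libraries, so the classes were not equally strict. All libraries of a tissue were also classed by the same lists of the other tissue, so their values are not independent. The permutation and sign-flip p-values do not allow for this. Leaving out the 2 longest heart lists also makes the numbers of libraries equal. With a heart consensus of at least 3 libraries the difference was -11.32 points (exact permutation, adjusted p = 0.0155).

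Width showed the same pattern. The median width of liver peaks found in the heart consensus was 712 to 824 bases, against 487 to 521 bases for those in no heart library. In the heart libraries the medians were 652 to 1137 bases for peaks found in the liver consensus and 288 to 531 bases for those in no liver library. The log2 ratio was 0.55 to 0.66 in liver and 0.93 to 1.27 in heart, without overlap, and the difference of -0.48 had an adjusted p of 0.0155 (exact permutation). Over the 10 libraries the mean ratio was 0.89 ± 0.27 (SD, n = 10, exact sign-flip permutation test, adjusted p = 0.0127). The difference between the tissues was -0.50 with "do" inputs and -0.27 with "vl" inputs (exact permutation, adjusted p = 0.0413 and 0.0619), and -0.31 without the 2 longest heart lists (exact permutation, adjusted p = 0.0619). With a heart consensus of at least 3 libraries it was -0.42 (exact permutation, adjusted p = 0.0155). The limit on the classes given for the rank holds here too.

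Few of the strongest heart peaks were missing from liver, while more of the strongest liver peaks were missing from heart. In the lowest 10% of peaks by fold, 39.2% of liver peaks (median of 4 libraries) were in the heart consensus and 24.1% of heart peaks (median of 6) were in the liver consensus. In the highest 10% the order was turned, with 75.0% for liver and 92.7% for heart. Of the 1000 peaks with the highest fold in a library, 75.3% to 81.5% were found in the heart consensus for liver libraries, and 97.7% to 99.6% in the liver consensus for heart libraries. By width, 36.7% to 38.9% of liver peaks under 500 bases and 71.9% to 74.0% of those of at least 5 kb were found in heart. For heart peaks the shares were 14.9% to 30.9% and 85.1% to 96.7%. The top 1000 and these classes were chosen with the data in view and were not tested. The heart consensus draws on 6 libraries and the liver consensus on 4, so the shares of the tissues are not measured alike. The overlap rule favours wide peaks in both tissues, and its part in the rise with fold and width was not tested.

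**Figure D3:**
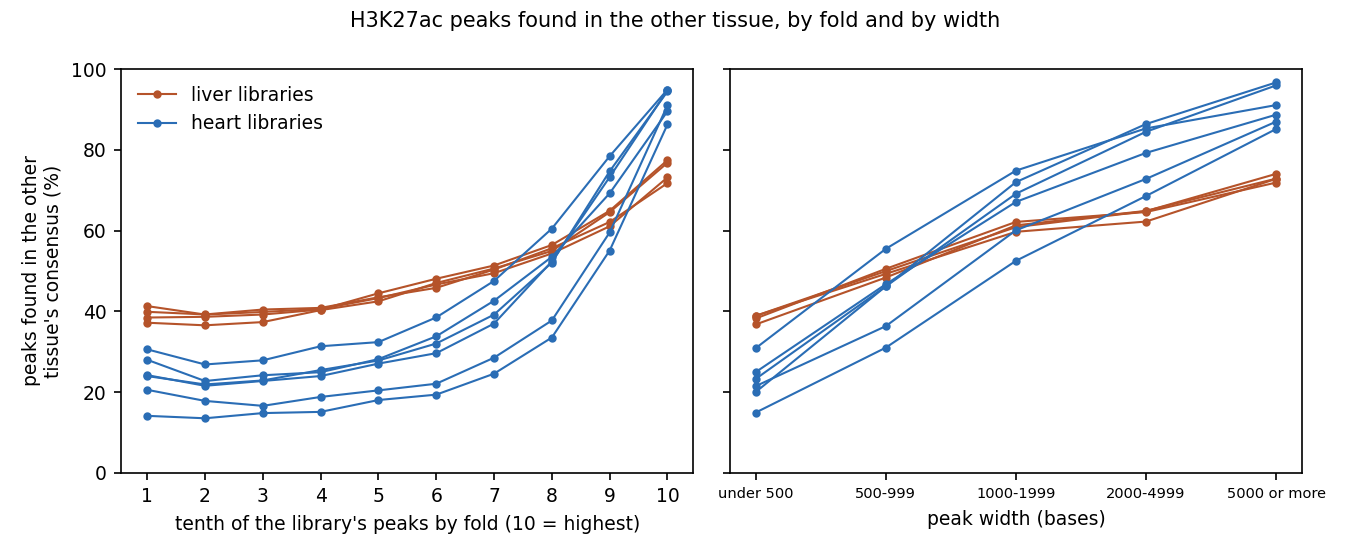
Each line is 1 H3K27ac library, in liver (n = 4) or heart (n = 6). The y axis is the percentage of its peaks found in the consensus of the other tissue, in 10 equal bins of fold within the library (left, 10 is the highest) and by peak width in bases (right). Heart lines start below the liver lines at low fold and end above them in the highest bin, at 86.3% to 94.9% against 71.7% to 77.4%.

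The liver regions with the highest folds and no heart peak were several kilobases wide and had H3K4me1 in liver alone. They were named by their mean percentile rank of fold among regions with a peak in all 4 liver libraries and no heart library. At chr7:120172077-120176547 the folds were 63.3, 87.0, 77.3 and 72.8 in the 4 liver libraries, a mean rank of 99.8. At chr7:140834049-140837740 they were 81.3, 87.3, 64.2 and 61.3, and at chr7:14517306-14522772 they were 74.6, 66.6, 64.8 and 71.9. All these values lie above the 99th percentile of fold in their lists. The next regions by rank were chr2:27620963-27628111, with folds of 62.1 to 77.0, and chr12:87153711-87160195, with folds of 55.0 to 76.8. Each of the 5 had an H3K4me1 peak in all 4 liver libraries and in none of the 5 heart libraries. An H3K4me3 peak was found in all 4 liver libraries at 4 of the 5 and in 1 liver library at the chromosome 2 region. Over all regions of this kind a liver library had H3K4me1 at 66.5% to 86.0% and H3K4me3 at 7.40% to 10.8%. At each of the 5, a single heart H3K4me3 library had a peak, and it is not identified here. Heart H3K4me3 library 5, which goes against its label below, had peaks at 37.5% of regions of this kind. The other heart H3K4me3 libraries had up to 1.36%. The widest such regions were chr3:94678889-94700200 with 21312 bases, chr8:105077920-105096093 with 18174 bases and chr13:24350287-24367677 with 17391 bases. The first was covered by 19145 to 21163 bases of peaks in each liver library. The chromosome 13 region had an H3K4me3 peak in no liver library and H3K4me1 in all 4.

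The leading heart regions without a liver peak had lower folds and lower ranks within their lists. At chr17:44187589-44191638 the heart folds ranged from 14.1 to 43.4, with a median of 23.8 and a mean rank of 97.4. At chr1:172295130-172303445 they ranged from 12.6 to 40.9 with a median of 23.1, and at chr13:44226550-44233118 up to 49.4 with a median of 20.7. Library 1 was the highest at all 3, and library 6 or 2 the lowest. The next were chr12:36039334-36042602 and chr6:85365292-85374691, with median folds of 19.3 and 18.4. All 5 had an H3K4me3 peak in all 6 heart libraries, where 15.6% to 32.4% of all regions of this kind had one in a heart library. At the chromosome 17, 12 and 6 regions the 4 liver H3K4me3 libraries had a peak as well, so H3K4me3 was called there in liver where H3K27ac was not. H3K4me1 was also called there, in 4, 4 and 3 of the 4 liver libraries. At the chromosome 1 and chromosome 13 regions no liver library had a peak of either H3K4 mark. The widest heart regions were chr7:142470062-142487926 with 17865 bases, chr9:57939275-57955682 with 16408 bases and chr6:115953939-115964474 with 10536 bases. At the chromosome 7 region heart peaks covered 13832 to 17848 bases, with folds of 12.5 to 24.6.

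The H3K4 lists, which had no part in choosing the regions, bear on what kind of region was found in a single tissue. In liver all 4 libraries of each mark came from the same 4 animals as the H3K27ac libraries. H3K4me1 peaks were found at 63.2%, 69.9%, 67.8% and 53.1% of the liver-only regions in the liver H3K4me1 libraries. In the 5 heart H3K4me1 libraries the share ran from 1.18% to 15.4%, with no overlap. The means were 63.5% ± 7.48 (SD, n = 4) and 7.86% ± 5.27 (SD, n = 5), a difference of 55.7 points (exact permutation, p = 0.00794, the smallest it can give, adjusted p = 0.0206). Without any 1 of the heart H3K4me1 libraries the difference was 54.0 to 57.5 points and no longer passed (exact permutation, adjusted p = 0.0531 to 0.0619). Each time p was 0.0286 in this exact permutation test, the smallest it can then give. At heart-only regions the heart libraries had 6.58% to 56.6% and the liver libraries 8.97% to 19.9%. The lowest heart value was that of the pool, whose H3K4me1 list had 20489 autosomal peaks against 70229 to 128372 in the others. The difference of -21.2 points, liver minus heart, did not pass (exact permutation, adjusted p = 0.103), and without the pool it was -28.0 points (exact permutation, adjusted p = 0.0531). At regions of both tissues the shares were 70.7% ± 5.25 in liver (SD, n = 4) and 53.8% ± 20.0 in heart (SD, n = 5) and the difference did not pass (exact permutation, adjusted p = 0.155).

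H3K4me3 was found at about as many regions of both tissues in liver as in heart libraries, and at few regions of 1 tissue. At regions of both tissues, 51.0% ± 1.03 had an H3K4me3 peak in a liver library (SD, n = 4) and 52.4% ± 6.12 in a heart library (SD, n = 6), a difference of -1.38 points (exact permutation, adjusted p = 0.753). At liver-only regions the liver libraries had 6.12%, 5.18%, 4.30% and 6.11%. The heart libraries had 0.164% to 1.46%, except for heart H3K4me3 library 5 with 18.5%, which is more than any liver library had. At liver regions found in all 4 libraries this library had 37.5%, against 7.40% to 10.8% in liver and up to 1.36% in the other heart libraries, so it goes against its tissue label there. At heart regions found in all 6 libraries it had 17.3%, within the 15.6% to 32.4% of the heart libraries. It came from the same animal as heart H3K27ac library 6. The difference at liver-only regions was 1.77 points with the library (exact permutation, adjusted p = 0.805) and 4.74 points without it (exact permutation, adjusted p = 0.0172).

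At heart-only regions the order was the other way. The heart H3K4me3 libraries had 3.95% to 11.9%, the highest being the pool, and the liver libraries 2.58% to 3.03%, with no overlap. The difference was -3.79 points, liver minus heart (exact permutation, p = 0.0143, adjusted p = 0.0310). Without any 1 of the liver libraries the adjusted p was 0.103, and without heart H3K4me3 library 5 the difference was -4.09 points (adjusted p = 0.0295, both exact permutation). Both H3K4 marks were found at a larger share of regions seen in more libraries of the tissue, a description with no test. Liver-only regions with a peak in 2, 3 or 4 libraries had H3K4me1 in liver at 44.5%, 56.6% and 79.1% on average. Heart-only regions with a peak in 2 libraries had H3K4me3 in heart at 2.86%, and those with a peak in all 6 at 20.8%. Regions seen in more libraries were also wider, with medians of 274 and 967 bases from 2 to 4 liver libraries and of 229 and 1458 bases from 2 to 6 heart libraries, and the part of width in these shares was not tested.

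**Figure D4:**
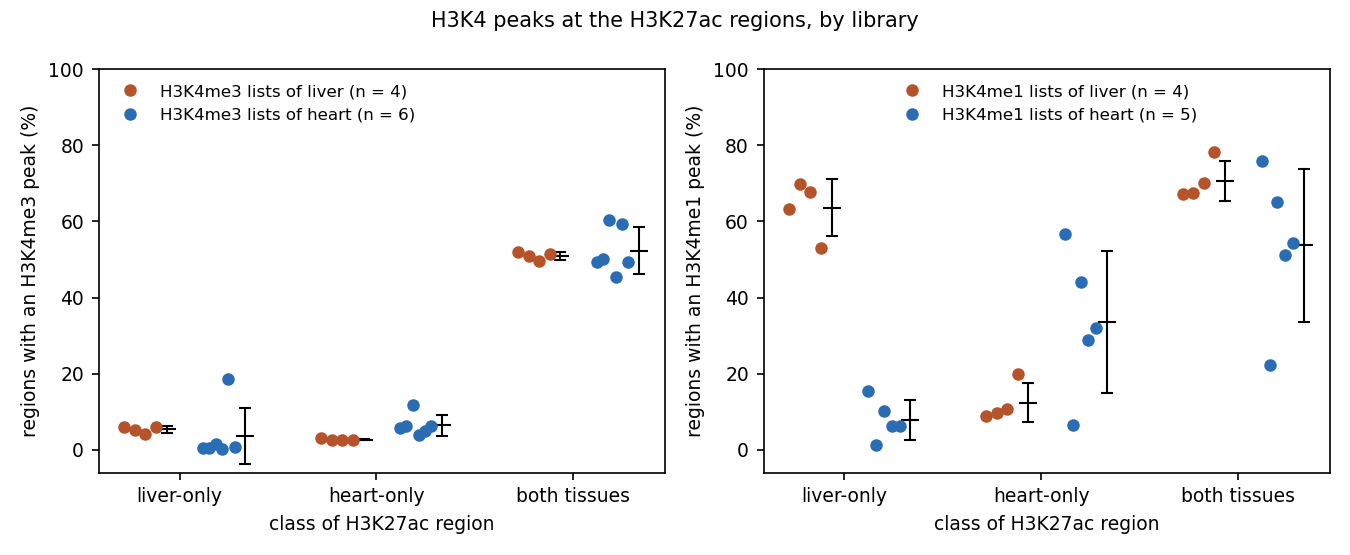
Points are single libraries of H3K4me3 (left) and H3K4me1 (right) from liver and heart, and bars are the mean ± SD. The y axis is the percentage of H3K27ac regions of each class (x axis) with a peak of that mark. Liver and heart lists are apart for H3K4me1 at liver-only regions, at 53.1% to 69.9% against 1.18% to 15.4%, and a single heart H3K4me3 library stands at 18.5% of liver-only regions.

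At the 14424 regions with a peak in all 10 libraries, the rank of fold among these same regions was compared between the tissues, so that list length did not enter. The fit was limma on normal scores of the ranks, with Benjamini-Hochberg adjustment over all 14424 regions. It called 3730 regions at an adjusted p under 0.05 (25.9%), 1882 of them higher in liver (13%) and 1848 higher in heart (12.8%). The median difference in mean rank was 40.6 percentile points at the regions higher in liver and -36.9 at those higher in heart. On a median-centred log2 scale of fold in place of ranks, the fit called 5869 regions.

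The 5 regions with the lowest p in favour of liver were at the top of the 14424 regions in every liver library, at a percentile of at least 98.0, and low among them in every heart library, at most at 26.7. Among all peaks of the heart lists, most of which are not found in all libraries, their mean rank was 48.7 to 63.4. At chr2:27243098-27250200 the folds were 79.3, 64.2, 89.1 and 85.8 in liver and 4.45 to 8.50 in heart, with a heart median of 6.05. On the percentile scale the region stood at 98.9 to 99.9 in liver and at 2.0 to 21.1 in heart, a difference of 4.16 ± 0.32 (SE) normal-score units (limma, adjusted p = 4.57e-09). At chr2:27586824-27602765 the liver folds were 82.1, 63.0, 97.2 and 84.4 and the heart folds 5.20 to 9.39. At chr9:46213199-46236764 they were 62.7, 67.5, 62.4 and 66.6 in liver and 4.72 to 8.29 in heart. The other 2 were chr2:27552237-27566481 and chr1:133360662-133376103, with liver folds of at least 60.5 and heart folds of at most 9.26. Of the 5, 3 lie on chromosome 2 close to the liver-only region chr2:27620963-27628111. The span chr2:27243098-27628111 of 385 kb, singled out after its values were seen, holds 57 regions, 21 of them liver-only, 7 heart-only and 20 of both tissues, the regions that define the span included, so nothing is read from these counts.

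In favour of heart the contrast was of similar kind. At chr8:79027846-79031964 the liver folds were 4.12, 4.64, 5.00 and 5.12, and the heart folds ranged from 15.9 to 72.4 with a median of 30.4. The region stood at 1.9 to 11.4 on the percentile scale in liver and at 88.2 to 99.6 in heart, a difference of -3.50 ± 0.34 (SE) normal-score units (limma, adjusted p = 6.59e-08). At chr2:131122611-131130696 the liver folds were 3.34 to 5.60 and the heart folds 14.1 to 39.8, and at chr11:46054470-46059194 they were at most 4.75 and from 12.7 to 33.7. The remaining regions were chr18:35846721-35851689 and chr19:8987443-8999319. At the last the liver percentiles were the highest of the 5, from 10.5 to 33.7, still below the heart percentiles of 88.2 to 99.6. All 5 had an H3K4me3 peak in all 4 liver and all 6 heart libraries, as had 9539 of the 14424 regions. At the 5 regions in favour of liver, in the order named, 4, 2, 4, 0 and 4 liver libraries had an H3K4me3 peak. The numbers of heart libraries there were 2, 1, 4, 1 and 6.

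**Figure D5:**
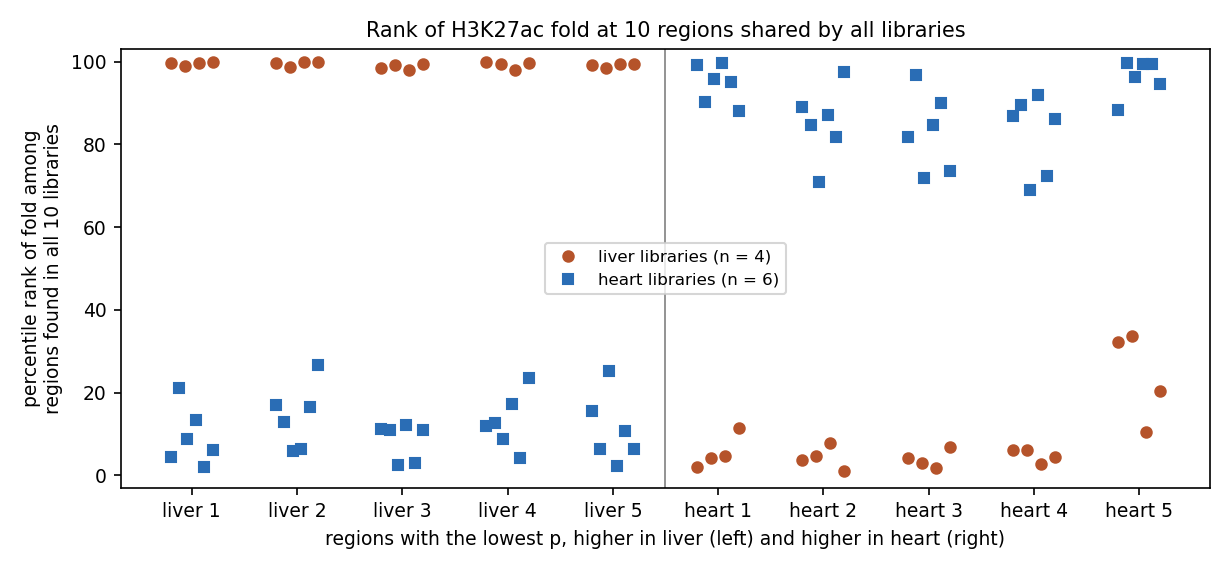
The y axis is the percentile rank of fold among the 14424 regions found in all 10 libraries. Points are single liver (circles, n = 4) and heart (squares, n = 6) H3K27ac libraries at the 5 regions with the lowest p in each direction, in the order of the text. Liver and heart libraries do not overlap at any of the 10 regions, which were chosen by p from these same ranks. Among all regions called, the tissues did not overlap at 1357 of 1882 higher in liver and at 1120 of 1848 higher in heart. The count was 234 of the 10694 regions without a call.

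More of these regions were called by width than by rank of fold. The bases covered by a library's peaks at a region were compared on a log2 scale centred on each library's median, again with limma over the 14424 regions. It called 6981 regions (48.4%), 3475 of them wider in liver (24.1%) and 3506 wider in heart (24.3%). Of the regions with a higher rank of fold in liver, 79.6% were also called wider in liver and 7 were called wider in heart. Of those with a higher rank in heart, 78.7% were wider in heart and 8 wider in liver. Fold and width come from the same peaks and are not independent measures. At chr17:24217521-24228254 liver peaks covered 10504, 10683, 10643 and 10411 bases and heart peaks 778 to 1100 bases, with a median of 1021, a centred difference of 3.57 ± 0.09 (SE, limma, adjusted p = 6.92e-09). With only the heart lists of "do" inputs, where the regions are built anew, that difference was 2.10. At chr4:128988086-129002192 and chr4:108110206-108132969 the liver peaks covered 12896 to 13229 and 20208 to 22577 bases, and the heart peaks at most 1070 and 1296. The centred difference at the first was 4.41, and 2.65 without liver library 1 or 2.74 without liver library 4, again with regions built anew. In favour of heart, chr11:100957473-100971976 was covered by 12372 to 14289 bases in heart and by 617, 956, 814 and 760 bases in liver. At chr9:118736315-118742735 heart peaks covered 4348 to 6342 bases and liver peaks 262 to 335, and no H3K4me3 library of either tissue had a peak there.

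The region chr5:74701224-74705448 was called by width and not by rank of fold. Heart peaks covered 3413 to 4137 bases of it and liver peaks 361, 430, 455 and 360, a centred difference of -3.09 ± 0.10 (SE, limma, adjusted p = 1.35e-08). The folds of 7.59 to 16.5 in liver and 8.66 to 14.1 in heart overlapped, and the fold-rank difference of -0.13 ± 0.35 (SE) normal-score units did not pass (limma, adjusted p = 0.828). By contrast, the 3 regions with the highest mean rank over all libraries were strong in both tissues. At chr5:123133712-123144859 the folds were 92.6, 90.6, 81.6 and 93.6 in liver and 24.2 to 105 in heart, with all libraries at or above the 98.9th percentile. At chr17:34119496-34124229 the rank of fold did not pass (limma, adjusted p = 0.904), nor did the width (limma, adjusted p = 0.558). At chr4:33246617-33250294 the rank did not pass (limma, adjusted p = 0.586), while liver peaks covered 3395 to 3678 bases and heart peaks 2548 to 2866, a centred difference of 0.51 ± 0.09 (SE, limma, adjusted p = 0.000763).

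The H3K4 lists were then ranked by fold at the regions that H3K27ac had called, a comparison added after the calls were seen. Among 9539 of the regions with an H3K4me3 peak in all 10 H3K4me3 libraries, 944 had been called higher in liver. Their median H3K4me3 percentile was 52.6 to 59.2 in the liver libraries and 30.1 to 33.9 in the heart libraries, a difference of 23.0 points (exact permutation, p = 0.00476, the smallest it can give, adjusted p = 0.00794 over 4 tests). At the 1116 regions called higher in heart the liver medians were 22.0 to 24.9 and the heart medians 46.0 to 49.4, a difference of -24.6 points (exact permutation, adjusted p = 0.00794). At the 7479 regions without a call the difference was 0.57 points, small but also without overlap of the tissues (exact permutation, unadjusted p = 0.00952). H3K4me1 gave 23.4 points at 486 regions higher in liver and -26.6 points at 403 regions higher in heart, out of 2622 regions with H3K4me1 in all 9 libraries (both exact permutation, adjusted p = 0.00794, the smallest it can give). The short H3K4me1 list of the heart pool had a peak at 27.6% of the 14424 regions, against 57.1% to 85.0% in the other lists. It thus limits the regions compared, and the differences hold for these alone. Liver and heart medians did not overlap in any of these 4 comparisons.

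Regions of the same class, whether of a single tissue or of both, often followed each other along the chromosomes. Of the liver-only regions, 65.7% were followed by another liver-only region, which made up 25.4% of the regions of the 3 classes. A heart-only region was followed by another in 73.9% of cases, against 50.2% of the regions. For regions of both tissues these values were 38.9% and 24.5%. The next region was taken at any distance, with the regions between the classes left out. A broad marked stretch can be split into several regions of a class, and the part of such splits in these values was not tested. Counting regions of all 4 liver and no heart libraries in windows of 1 Mb, the fullest were chr15:10000001-11000000 with 47 such regions and chr4:60000001-61000000 with 45, where the windows with any had a median of 6. Those windows held 3 and 0 regions of all 6 heart and no liver libraries. The fullest windows for heart were chr8:125000001-126000000 and chr11:76000001-77000000, with 26 heart regions each, and 4 and 6 liver regions. The ratio of strict liver to strict heart regions ran from 1.45 on chromosome 11 to 3.01 on chromosome 19 and was above 1 on all 19 autosomes. Strict heart regions need a peak in 6 libraries and strict liver regions in 4, so the ratio does not weigh the tissues alike. At the 14424 regions found in all libraries, the highest points of the peaks in a pair of libraries were a median of 42 to 49 bases apart within liver, 52 to 122 bases within heart and 64 to 123 bases between the tissues, the last range overlapping that within heart. These positions are a description with no test.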

How the data were processed

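ChIP-seq peak lists, 1 per library, were used as deposited. Peaks were called with MACS2, per the submitters' processing notes, and the build is GRCm38 and each list has its own input, per the file names. No aligner is given in the sources used here. The fold is a linear ratio from the authors' caller, the deposited columns of −log10 q-value (lowest 1.31, a q of 0.05) and of −log10 p-value come from the same caller, and the deposited score was not used. Of 116 lists, 29 mouse lists were used (10 H3K27ac, 10 H3K4me3, 9 H3K4me1) and 87 were not. Only the 19 autosomes were kept. Consensus segments under 100 bases were dropped. Where several peaks met a region, the highest fold and the sum of bases were taken.

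Library-level values were compared with two-sided exact permutation tests over libraries, and regions with limma 3.58.1 in R 4.3.3 (trend off), using Python 3.11.15, NumPy 2.4.6, pandas 2.3.3, SciPy 1.17.1 and Matplotlib 3.10.9. The fits and overlaps were tested on simulated data. Regions with a missing value in any library were left out of the fits, and nothing was imputed. Named regions were, among those of every library of a tissue and no library of the other, the 5 highest by mean rank of fold and the 3 widest. Among those of all 10 libraries they were the 3 highest by rank, the 5 with the lowest p each way for fold and the 3 each way for width. The comparison, the lists and the tests were chosen with earlier results of these data known. Alternatives were a −log10 q of at least 4, equal list lengths, an overlap of 1 base, a stricter consensus, relaxed presence, another scale, leaving out each library, and splitting the heart lists by the prefix of the input's ID. No mouse annotation of this build was used, so gene lists and marker genes are not analysed here.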

Additional observations from a re-analysis of the deposited data

Results flagged for a closer look

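In 5 of 40 groups of libraries 1 library lay far from the rest, where chance gives about 1 in 20. Liver library 1 had the lowest share of peaks of at least 5 kb, 1.48%, against 1.99% to 2.09% in the other liver libraries. Heart library 6 had the lowest share of peaks with a −log10 q of at least 4, 76.2%, and the lowest share of its 1000 highest peaks found in liver, 97.7%. Heart H3K4me3 library 5, from the same animal as heart H3K27ac library 6, had a peak at 18.5% of liver-only regions. Heart H3K4me3 library 3, the pool, had one at 11.9% of heart-only regions. Both tissues were compared for peaks found in the other tissue against peaks found in none of its libraries. The gap in rank of fold differed by -12.84 points and the log2 width ratio by -0.48, liver minus heart, in exact permutation tests. Liver peaks were classed by 6 heart libraries and heart peaks by 4 liver libraries. The same lists classed every library of a tissue, and the overlap rule favours wide peaks.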

How the results depend on the processing

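No paired analysis was possible because liver and heart libraries came from different animals and their numbers were given in accession order. The cause of each change below was not tested, except that with fewer libraries the smallest exact permutation p rises. With only heart lists of "do" inputs the differences in number of peaks (-0.60), median width (0.49) and share found in the other tissue (13.2 points) passed the threshold. The 2 longest heart lists both have "do" inputs, so the split by input and leaving out those lists are not separate checks. With only "vl" inputs the share turned to -1.16 points, and the gap in rank (-8.07), in width (-0.27), and both over all libraries (19.6 and 0.86) no longer passed. Without the 2 longest heart lists, an alternative chosen after seeing the data, the share turned to -0.64 points, the gaps in rank (-9.51) and width (-0.31) no longer passed, and heart-only regions numbered 31768. With equal list lengths the share turned to -1.08 points, and by bases covered the first difference turned to 0.11. On a median-centred log2 scale 5869 regions were called by fold. Leaving out 1 library at a time gave 0.23 to 0.43 for median width (passing without heart library 6) and 2.64 to 8.56 points for the share (passing without heart library 5). It gave -14.3 to -11.3 points for the gap in rank and -0.56 to -0.40 for that in width, all past the threshold. For H3K4me3 it gave 1.07 to 4.74 points at liver-only regions (passing without heart library 5), -4.31 to -2.73 at heart-only regions (not passing without any 1 liver library) and -2.78 to 0.25 at regions of both tissues, turned without heart H3K4me3 library 3 (0.25) or 5 (0.03). For H3K4me1 at liver-only regions it gave 53.5 to 59.1 points, not passing without any 1 heart library (adjusted p of 0.0531 to 0.0619). Regions called by fold numbered 2798 to 4085 and by width 6329 to 7094. Including values listed here, 200 recomputed test results kept their direction and side of the threshold, and 77 recomputed counts stayed within 1.5 times the reported count. Unknown read depth limits all counts of peaks and of regions found in 1 tissue.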
